A study of Homo sapiens with 3 samples.

Results

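The actins and smooth muscle contractile genes, 10 of the 32738 genes in the merged count table, were read by day and by cell group: the 4 muscle actins ACTC1, ACTA1, ACTA2 and ACTG2, the actin-binding proteins TAGLN, CNN1, CALD1 and LMOD1, and the myosin MYH11 with its kinase MYLK. They were chosen by name, and the comparison asked of each was its level in cardiomyocytes (CMs) against stromal cells. The cells came from chambered cardiac organoids (CCOs), hollow beating tissues grown in Matrigel from H7, an established human embryonic stem cell line, after differentiation towards cardiovascular progenitors. Single cells were captured on D8, directly after the organoids formed, on D14, after a phase of progenitor expansion, and on D21, after a phase of maturation. The labels give no treatment, and 1 library of unstated numbers of pooled organoids was made for each day, so a difference between days and one between libraries cannot be told apart. The study's methods also give a growth factor medium with Wnt-3A and EDN1 up to D14. After that a maturation medium in a spinner flask was used. This change of culture cannot be told apart from day or library on D21. The data allow no test of any comparison, and each value below describes these 3 libraries.

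Muscle cells shorten when myosin pulls on actin filaments, and humans carry a family of near-identical muscle actins that adult tissues use in different mixtures: ACTC1 in the heart, ACTA1 in skeletal muscle, ACTA2 in vascular smooth muscle and ACTG2 in gut and bladder smooth muscle. The embryonic heart tube is known to use the smooth muscle and skeletal forms alongside the cardiac form, and activated fibroblasts take up ACTA2 as well, so the smooth muscle genes do not mark smooth muscle alone. Many of these genes are targets of serum response factor (SRF), which binds a short palindromic sequence called the CArG box, and of its cofactor myocardin (MYOCD).

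The limits on gene number and mitochondrial share given in the study's methods left 2657, 3585 and 1946 cells on D8, D14 and D21, out of 3563, 4615 and 9149 barcodes. The kept cells of each day had a median of 12282 to 15316 UMIs (unique molecular identifiers, each standing for 1 captured RNA molecule). Between 9 and 14 barcodes were shared by each pair of libraries among the kept cells. Cells were clustered together without the 10 genes and without other contractile genes among the clustering genes. Cells called CM-like numbered 929, 1088 and 544, and different clusters held them on each day: cluster 2 on D8, cluster 0 on D14 and clusters 4 and 17 on D21. All 10 CM markers led clusters 2, 0 and 4, and 8 of them led cluster 17. Cluster 2, the D8 group, was also led by 3 stromal markers. Stromal-like cells numbered 322 on D14, nearly all in cluster 10 with 6 of 10 stromal markers, and 823 on D21 in cluster 3 with 10 of 10. No cluster was named stromal on D8, so cluster 8, 410 cells with ISL1 and FGF8 among its leading genes and given no cell type name here, was set beside the CM-like cells there, a choice made after seeing the data. No cluster met the rule for smooth muscle or pericytes (mural cells). Of the mural markers, 3 led cluster 10 and 3 led cluster 3, fewer than the stromal markers that led them. Clusters with endoderm or epithelial markers, 258, 212 and 307 cells that should make little contractile RNA, gave a level of comparison for free RNA. Some members stood above the range of the CM markers there, which limits this use.

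The CM-like cells of D8 were far from uniform. When ranked by the share of their UMIs in the 10 CM markers, and split into 4 sets of equal cell number, the lowest set had a median share of 0.0251% and the highest 1.36%, so that the D8 values below average over cells with hardly any CM marker RNA. Such sets are ranges and not cell types.

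ACTC1, the cardiac alpha-actin and the main thin filament protein of the adult heart, was the most abundant of the 10 in CM-like cells on each day. Levels are given as CPM, the UMIs of a gene per 1000000 UMIs summed over the cells of a group, which in a 3′ library counts molecules and needs no correction for gene length. ACTC1 stood at 694 CPM on D8 (95% exact Poisson interval 680 to 707), 6238 CPM on D14 (6198 to 6279) and 14451 CPM on D21 (14364 to 14539). These intervals, like all intervals below, cover counting error only. In stromal-like cells ACTC1 was at 249 CPM (235 to 264) on D14 and 579 CPM (565 to 593) on D21. The order of the groups was the same on both days, with CM-like cells above stromal-like cells by a log2 ratio of 4.59 on D14 and 4.62 on D21 (log2 ratios throughout are taken after adding 10 CPM to both levels, which shrinks those of low genes). In CM-like cells the ratio of D14 to D8 was 3.15 and that of D21 to D14 was 1.21, both on the log2 scale. The second value was under 2-fold with the mitochondrial limit at 5%, at a clustering resolution of 1.2 and when CM-like cells were the highest 10% of each day by marker share, where it was 0.74, 0.81 and 0.60.

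ACTC1 also gave UMIs in cells that should lack it. On D21 its level in stromal-like cells was 4.01% of that in CM-like cells, in the endoderm or epithelial clusters 3.16% and in 38 endothelial-like cells 5.75%. The 10 CM markers lay in the same range in stromal-like cells of D21, from 3.74% for MYL7 to 10.6% for PLN. All 8 cardiac sarcomere genes of a fixed list were 2-fold or more higher in stromal-like cells on D21 than on D14, where 2.95% of all genes were. Their median log2 ratio was 1.88. The stromal ACTC1 level moved with them, with a log2 ratio of 1.18 between the same days, or 0.73 and under 2-fold when stromal-like cells were the highest 10% of each day by marker share. The part of free CM RNA in that value was not tested.

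ACTA1, the skeletal alpha-actin, ran the other way. It was at 307 CPM (298 to 316) on D8, 119 CPM (113 to 124) on D14 and 60.1 CPM (54.6 to 65.9) on D21 in CM-like cells. The log2 ratio was -1.30 for D14 against D8 and -0.88 for D21 against D14. Its UMIs sat in few cells. On D8, 4524 ACTA1 UMIs came from 245 of 929 cells and the 10 richest cells held over 50% of them. On D21 a single cell held 200 of the 441 UMIs, 45.4%, and with that cell left out the CM-like level was 32.9 CPM and the ratio to D14, with the top cell of D14 left out too, was -1.498. In stromal-like cells ACTA1 was at 5.15 CPM on D14 and 2.95 CPM on D21, from 24 and 33 UMIs, so the CM-like cells were above them by log2 ratios of 3.09 and 2.44. The D21 ratio was 1.80 without the top cell of each group, and 0.36 under the mitochondrial limit of 5%. ACTA1 was not confined to CM-like cells: it reached 69.2 CPM on D8 and 50.8 CPM on D14 in the endoderm or epithelial clusters, 22.5% and 42.8% of the CM-like level, above the 1.68% to 11.9% on D8 and the 1.08% to 5.73% on D14 that the CM markers reached in those clusters.

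ACTA2, the smooth muscle alpha-actin most used to stain vascular smooth muscle and myofibroblasts, was abundant in both groups. In CM-like cells it was at 567 CPM (555 to 580) on D8, 733 CPM (719 to 747) on D14 and 1177.5 CPM (1153 to 1203) on D21. In stromal-like cells it was at 168 CPM (157 to 180) on D14 and 819 CPM (802 to 836) on D21. The CM-like cells were higher by a log2 ratio of 2.06 on D14 and 0.52 on D21, so the gap was over 2-fold on D14 and under 2-fold on D21. The direction of the D21 value did not hold in all settings: it was -0.069 with the mitochondrial limit at 20% and -0.055 with the highest 10% of each day by marker share, and 1.04 against all other kept cells. In CM-like cells the log2 ratio of D14 to D8, 0.36, ranged from -0.64 to 0.44 over the settings, so no direction is given for it. The stromal log2 ratio of D21 to D14 was 2.22, beside 0.68 in CM-like cells. ACTA2 was at 49.5 to 63.5 CPM in the endoderm or epithelial clusters on the 3 days. That was 5.39% of the CM-like level on D21, where stromal-like cells had 69.5%.

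ACTG2, the gamma-actin of gut and bladder smooth muscle, was a stromal gene of D21 in these data. It had 270 UMIs in 823 stromal-like cells on D21, 24.1 CPM (21.3 to 27.2), against 3 UMIs in 322 stromal-like cells on D14. The log2 ratio of these counts per total was 5.23 (exact 95% interval 3.66 to 7.51), and 1.68 after adding 10 CPM. In CM-like cells ACTG2 had 41, 2 and 7 UMIs on D8, D14 and D21, at most 2.78 CPM. No ACTG2 UMI was seen in the endoderm or epithelial clusters on D21, which allows up to 0.398 CPM.

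**Figure D1:**
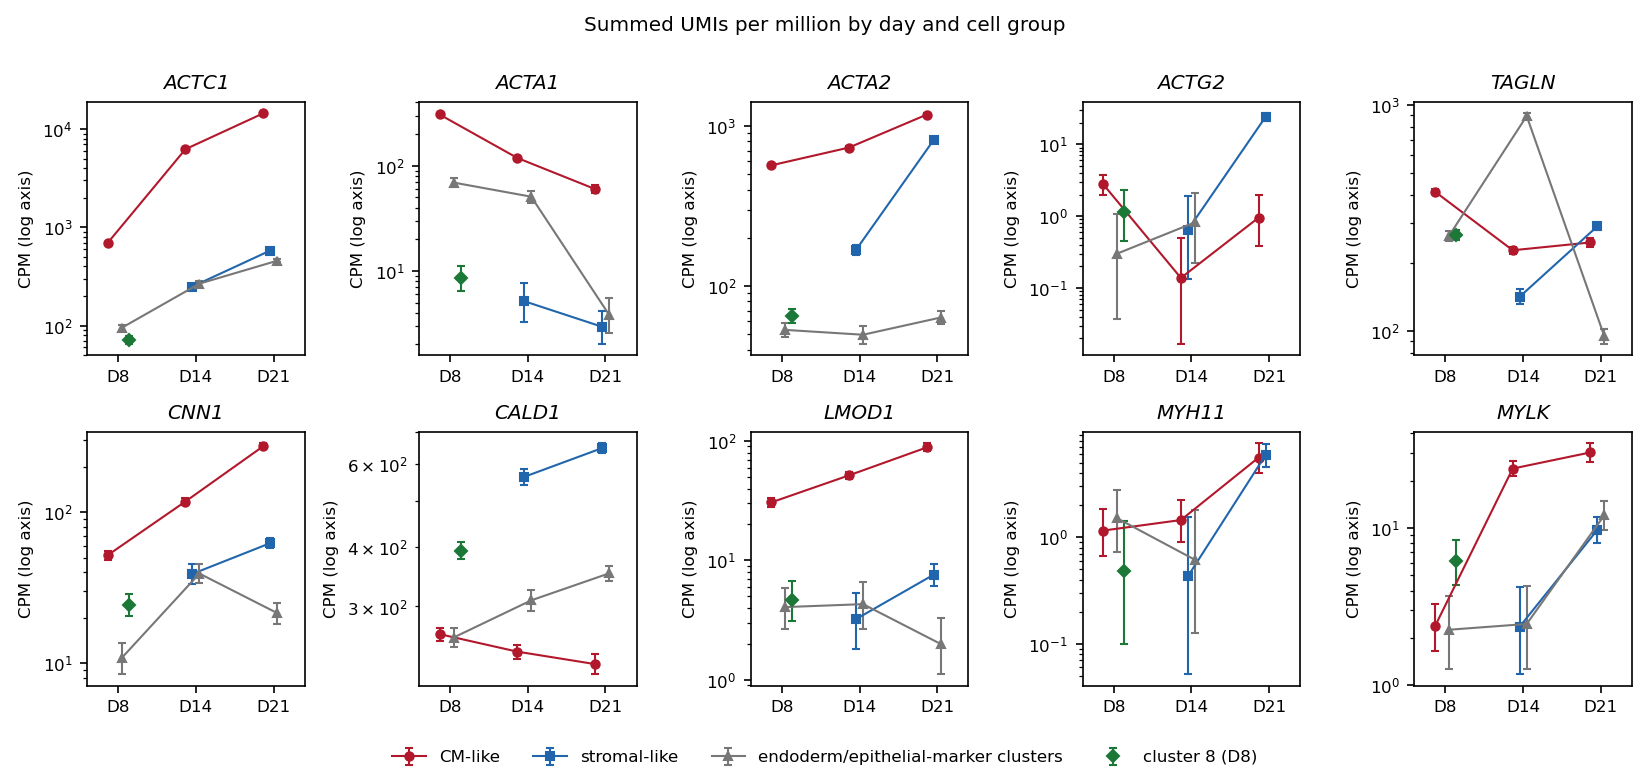
Levels of the 10 genes in CPM (log axis) by day, one panel per gene, in CM-like cells, stromal-like cells, the endoderm or epithelial clusters and, on D8, cluster 8. Bars are exact Poisson intervals, and groups with 0 UMIs are not drawn. ACTC1 in CM-like cells goes from 694 to 14451 CPM while ACTA1 goes from 307 to 60.1 CPM, and stromal ACTA2 goes from 168 to 819 CPM.

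SRF sites in the actin promoters are shown because 3 of the 4 muscle actins carry a perfect CArG box close to a start site. The 250 bases before each RefSeq start were searched on both strands for the CArG box (a palindrome, so both strands give the same match). It was present before a start of 394 of 27305 genes, 1.44%, and of 4 of the 8 members with an entry: ACTC1, ACTA1, ACTG2, which has 2, and MYLK. ACTA2, CNN1, CALD1 and LMOD1 had no perfect match in this window. TAGLN and MYH11 had no entry. Sites with exactly 1 mismatch, perfect boxes not counted, were present for 6 of the 8 members and 19.0% of all genes. ACTA2, CALD1 and LMOD1 were among these 6, and MYLK and CNN1 were not. Each line below gives 20 bases on either side of the box, read 5′ to 3′ on the strand of the gene, with the box in capitals. A match in these letters is a description and not a measured site.

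ACTC1, chr15:34795629-34795678 (GRCh38.p14, minus strand), box 109 to 100 bases before the start: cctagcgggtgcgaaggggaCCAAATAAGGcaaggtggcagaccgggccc
ACTA1, chr1:229434162-229434211 (GRCh38.p14, minus strand), box 97 to 88 bases before the start: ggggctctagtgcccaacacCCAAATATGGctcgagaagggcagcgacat
ACTG2, chr2:73892878-73892927 (GRCh38.p14, plus strand), box 110 to 101 bases before the start: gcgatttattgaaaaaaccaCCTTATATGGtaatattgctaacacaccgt
ACTG2, chr2:73892915-73892964 (GRCh38.p14, plus strand), box 73 to 64 bases before the start: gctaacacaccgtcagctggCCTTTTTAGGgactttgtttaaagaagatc
MYLK, chr3:123620613-123620662 (GRCh38.p14, minus strand), box 94 to 85 bases before the start: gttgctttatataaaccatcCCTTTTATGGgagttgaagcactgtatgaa

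The genes with a perfect box did not share a pattern: ACTC1 was higher and ACTA1 lower in CM-like cells on each later day, and ACTG2 was highest in stromal-like cells. Among the SRF cofactors, MYOCD, which drives both cardiac and smooth muscle genes, was at 128, 161 and 160.3 CPM in CM-like cells on D8, D14 and D21 and at 5.21 and 7.68 CPM in stromal-like cells on D14 and D21. SRF itself was at 19.3, 35.5 and 58.3 CPM in CM-like cells and 20.4 and 17.3 CPM in stromal-like cells.

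The 4 muscle actins together gave 1571, 7090.0 and 15690 CPM in CM-like cells on D8, D14 and D21, while the cytoplasmic actins ACTB and ACTG1, which build the cytoskeleton of every cell, gave 3388, 1542 and 738 CPM. Muscle actin was below cytoplasmic actin on D8 and above it on D14 and D21. In stromal-like cells the muscle actins gave 423 CPM on D14 and 1425 CPM on D21 against 5719 and 8238 CPM of cytoplasmic actin. Both cytoplasmic actins were 2-fold or more lower in CM-like than in stromal-like cells on each of these days, with median log2 ratios of -1.91 on D14 and -3.51 on D21. Among all genes 4.42% and 9.24% were that much lower on the same days.

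Within the muscle actin UMIs of CM-like cells, ACTC1 made up 44.2% on D8, 88.0% on D14 and 92.1% on D21. ACTA2 made up 36.1%, 10.3% and 7.50%, and ACTA1 19.5%, 1.67% and 0.383%. The mixture of D8 was thus spread over 3 actins and that of D21 was nearly all ACTC1. In stromal-like cells ACTC1 made up 58.9% and ACTA2 39.8% on D14, against 40.6% and 57.5% on D21, where ACTG2 added 1.69%. The ACTC1 share there holds whatever free CM RNA the stromal-like cells carried.

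The mixture was also read cell by cell, in cells with at least 20 muscle actin UMIs. On D8 only 240 of 929 CM-like cells (25.8%) had that many. ACTC1 led in 111 of them (46.2%), ACTA2 in 92 (38.3%) and ACTA1 in 31 (12.9%), with 6 ties. The middle cells had 44.0% ACTC1, but the lowest 10% of cells had at most 2.70% and the highest 10% at least 89.2%, so that single cells of D8 ran from nearly no ACTC1 to nearly all ACTC1. On D14 ACTC1 led in 816 of 846 such cells (96.5%) and on D21 in 532 of 536 (99.3%). Among stromal-like cells of D21 with at least 20 muscle actin UMIs, 225 of 823, ACTA2 led in 188 (83.6%) and ACTC1 in 36 (16%).

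**Figure D2:**
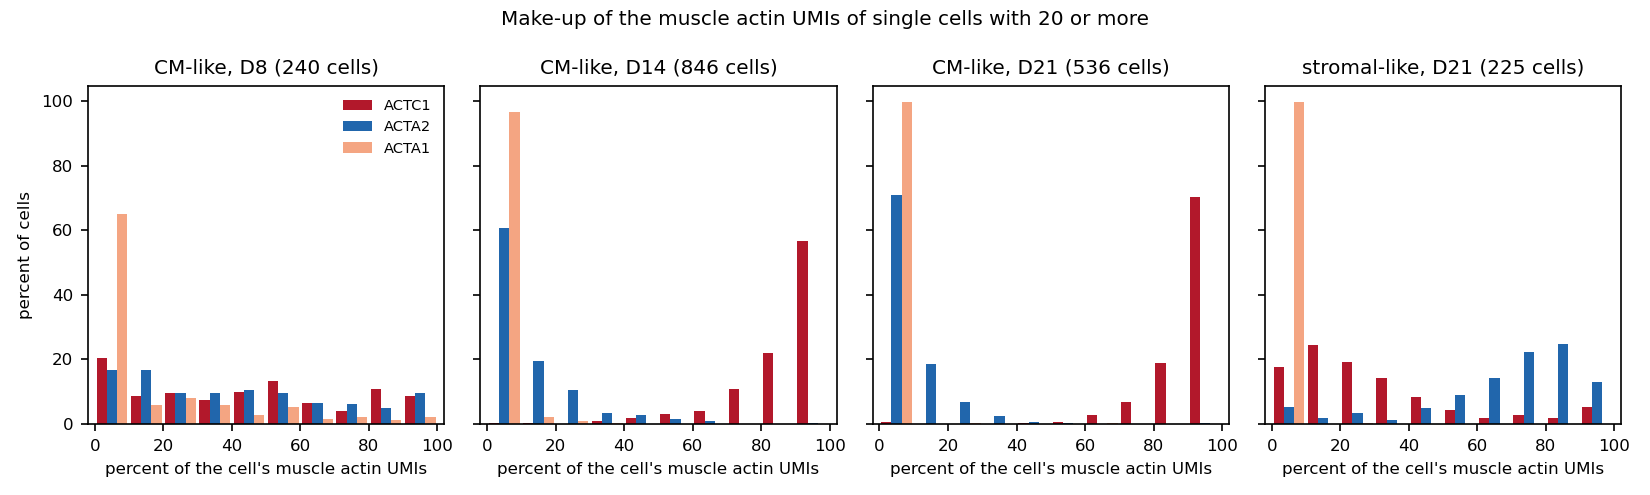
Share of each cell's muscle actin UMIs that were ACTC1, ACTA2 or ACTA1, in bins of 10%, for cells with at least 20 muscle actin UMIs: CM-like cells of D8, D14 and D21 and stromal-like cells of D21. The 240 cells of D8 spread over the whole axis, the 536 CM-like cells of D21 pile up at high ACTC1, and the 225 stromal-like cells of D21 lie mostly at high ACTA2. In stromal-like cells the minimum of 20 UMIs favours cells with much ACTA2.

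Free RNA and depth bear on how many cells hold a gene, so each cell was thinned to 4000 UMIs. ACTA2 and ACTC1 were then found together in 23.8%, 56.5% and 71.0% of CM-like cells on D8, D14 and D21. ACTA2 was found in 46.9%, 57.9% and 71.0% of CM-like cells and in 33.9% and 59.4% of stromal-like cells on D14 and D21, beside 12.8%, 12.3% and 20.8% of cells in the endoderm or epithelial clusters on the 3 days. Without thinning, 71.3%, 73.4% and 84.2% of CM-like cells and 39.9%, 42% and 67.1% of endoderm or epithelial cells had a UMI. The median CM-like cell had 14422, 12247 and 12765.5 UMIs on the 3 days and the median endoderm or epithelial cell 23580.5, 20955 and 21922. For ACTC1 the stromal share of D21, 87.7% of thinned cells, stood beside 76.2% in the endoderm or epithelial clusters. On D14 the stromal ACTC1 share of 50% was below the 53.3% there. The part of free RNA in these ACTC1 shares was not tested.

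TAGLN (transgelin), an actin cross-linker that appears early in smooth muscle but also in embryonic heart muscle, differed by less than 2-fold between the groups with the settings used here. It was at 414 CPM (403 to 424) on D8, 228 CPM (220 to 236) on D14 and 247 CPM (235 to 258) on D21 in CM-like cells. In stromal-like cells it was at 142 CPM (131 to 153) and 291 CPM (281 to 301) on D14 and D21. The log2 ratio of CM-like over stromal-like cells was 0.65 on D14 and -0.23 on D21, both under 2-fold. Over the other settings it ranged from -0.0088 to 1.37 on D14 and from -0.90 to 0.25 on D21, so neither direction held in all of them. The stromal ratio of D21 to D14 was 0.99, just under the 2-fold line, or 1.09 without the top cell of each day. Its highest level was in neither group: the 208 cells of cluster 7 on D14, an endoderm or epithelial cluster, had 909 CPM, so the level in those clusters, 264, 894 and 94.6 CPM by day, cannot stand for free RNA of this gene.

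CNN1 (calponin), which binds actin and slows the myosin ATPase in smooth muscle, was a CM gene here. It was at 52.0 CPM (48.4 to 55.8), 118 CPM (112 to 124) and 274 CPM (262 to 286) in CM-like cells on D8, D14 and D21, and at 39.1 CPM (33.6 to 45.2) and 62.5 CPM (57.9 to 67.3) in stromal-like cells on D14 and D21. CM-like cells were higher by log2 ratios of 1.38 and 1.97. The steps between days in CM-like cells, 1.05 and 1.15 on the log2 scale, were near the 2-fold line and fell under it in 7 and 3 of the other settings tried. After thinning, CNN1 was found in 18.7%, 33.1% and 57.9% of CM-like cells and in 13.7% and 14.7% of stromal-like cells. In the endoderm or epithelial clusters it was found in 3.88%, 12.3% and 6.19% of cells, so the stromal share of D14 was close to the share there. Those clusters had 39.3 CPM of CNN1 on D14, 33.3% of the CM-like level, above the 1.08% to 5.73% of the CM markers. The part of free RNA in these shares was not tested.

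CALD1 (caldesmon), which holds actin and myosin apart until calcium rises and has a form in most non-muscle cells, stayed within 0.20 on the log2 scale over the days in CM-like cells with the settings used here (its ratio of D21 to D14 ranged from -0.37 to 0.58 over the others) and was the only member 2-fold or more lower in them than in stromal-like cells on both D14 and D21. It was at 262 CPM (254 to 271), 241 CPM (233 to 249) and 227 CPM (216 to 238) in CM-like cells. Stromal-like cells had 564 CPM (542 to 586) on D14 and 648 CPM (633 to 663) on D21. The log2 ratios were -1.19 and -1.48. The first was -0.89, under 2-fold, at a clustering resolution of 0.4. The endoderm or epithelial clusters, at 258, 309 and 352 CPM, were also at or above the CM-like cells on D14 and D21, and endothelial-like cells were at 449, 438 and 486 CPM.

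LMOD1, a leiomodin that seeds actin filaments in smooth muscle, was low, and higher in CM-like cells. It was at 30.6 CPM (27.9 to 33.6), 51.6 CPM (48.0 to 55.4) and 88.4 CPM (81.7 to 95.5) in CM-like cells, against 3.22 CPM and 7.60 CPM in stromal-like cells, from 15 and 85 UMIs. The log2 ratios were 2.22 on D14 and 2.48 on D21. In stromal-like cells LMOD1 had 6.24% and 8.59% of the CM-like level on these days, inside the ranges of the CM markers there, 1.53% to 7.68% and 3.74% to 10.6%. LMOD2, the leiomodin of striated muscle, stood at 1.63, 15.6 and 57.1 CPM in CM-like cells, below LMOD1 on each day.

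MYH11, the smooth muscle myosin heavy chain and the most specific marker of mature smooth muscle, was scarce. It had 17, 21 and 41 UMIs in CM-like cells on D8, D14 and D21, or 1.15, 1.45 and 5.58 CPM, and 2 and 66 UMIs in stromal-like cells on D14 and D21, or 0.430 and 5.90 CPM. On D21 the 2 groups did not differ beyond counting error, with a log2 ratio of the counts of -0.08 (-0.68 to 0.51). The 66 stromal UMIs came from 27 cells, and 1 cell held 12.

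MYLK, the kinase that switches on smooth muscle myosin, was low and carried by few cells. It was at 2.38, 23.9 and 30.2 CPM in CM-like cells on D8, D14 and D21 and at 2.36 and 9.74 CPM in stromal-like cells on D14 and D21. CM-like cells were higher by log2 ratios of 1.45 on D14 and 1.03 on D21. On D21, however, 1 CM-like cell held 118 of the 222 UMIs (53.2%) and only 32 cells had any. With the top cell of each group left out, the levels were 14.2 and 7.71 CPM and the log2 ratio was 0.45, and under other limits on cells it was below 0, so no direction is given for MYLK on D21. Thinned to equal depth, 3.49% of CM-like and 2.79% of stromal-like cells had a UMI, beside 3.91% in the endoderm or epithelial clusters.

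Counted together on D14, 8 of the 10 genes reached 10 CPM in CM-like or stromal-like cells. Of these, 6 were 2-fold or more higher in CM-like cells, ACTC1, ACTA1, ACTA2, CNN1, LMOD1 and MYLK, where 6.58% of 9407 genes were, and CALD1 was lower, where 4.42% were. The median log2 ratio of the 8 was 1.76 and that of all genes was -0.00. On D21, 9 genes reached 10 CPM, 5 were higher in CM-like cells, ACTC1, ACTA1, CNN1, LMOD1 and MYLK, where 8.3% of 8871 genes were, and ACTG2 and CALD1 were lower, where 9.24% were. The median of the 9 was 1.03, that of all genes 0.05. MYLK counts among the 5 only with its top cell.

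**Figure D3:**
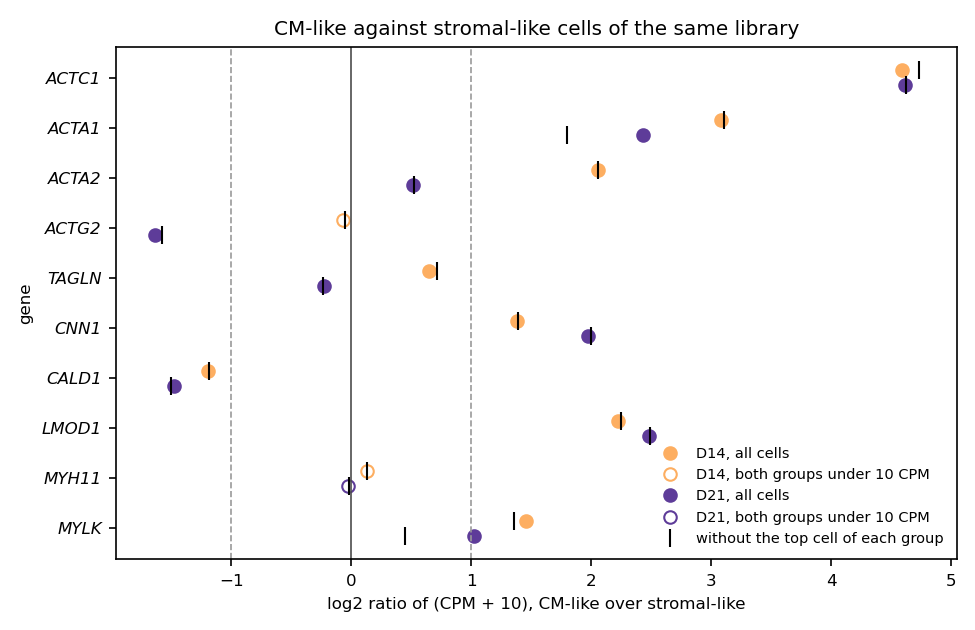
Log2 ratio of CM-like over stromal-like cells (10 CPM added to both) for the 10 genes on D14 and D21. Ticks give the ratio without the cell holding most UMIs in each group, open points are genes under 10 CPM in both groups, and dashed lines mark 2-fold. ACTC1 stands at 4.59 and 4.62, ACTA2 goes from 2.06 to 0.52, CALD1 lies at -1.19 and -1.48, and ACTG2 at -1.64 on D21.

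On D8, against cluster 8, 7 genes reached 10 CPM and 4 were 2-fold or more higher in CM-like cells, where 2.61% of 8589 genes were. These were ACTA1 with a log2 ratio of 4.10, ACTC1 with 3.11, ACTA2 with 2.94 and LMOD1 with 1.47. None was lower, where 0.99% of genes were. The cells of cluster 8 had 71.6 CPM of ACTC1, 8.55 CPM of ACTA1 and 65.0 CPM of ACTA2, but 266 CPM of TAGLN, below the CM-like level by less than 2-fold, and 394 CPM of CALD1, above it by less than 2-fold.

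Between days, CM-like cells had 3 of 8 tested members 2-fold or more higher on D14 than on D8, ACTC1, CNN1 and MYLK, where 6.04% of 9112 genes were, and ACTA1 lower, where 1.28% were. For D21 against D14, ACTC1 and CNN1 were higher, where 2.73% of 9148 genes were, and none lower, where 7.02% were. Over the whole span from D8 to D21, 5 of 8 were higher, ACTC1 with a log2 ratio of 4.36, CNN1 with 2.20, MYLK with 1.70, LMOD1 with 1.28 and ACTA2 with 1.04, where 7.65% of 9002 genes were, and ACTA1 was lower at -2.18, where 7.75% were. Of these, ACTA2 and LMOD1 fell under 2-fold in 6 of the other settings and MYLK in 3, and ACTA2 and MYLK turned below 0 in some, so no direction over this span is given for ACTA2 and MYLK. Stromal-like cells had ACTC1, ACTA2 and ACTG2 of 6 tested members higher on D21 than on D14, where 2.95% of 8847 genes were, and none lower, where 4.16% were; ACTC1 counts there only when the groups come from clusters. The median log2 ratio of D21 to D14 over all genes was -0.13 in CM-like and -0.14 in stromal-like cells, and the member values sit against that shift. CALD1, at -0.08 in CM-like cells, was above this median.

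Of 20 further smooth muscle contractile and regulatory genes on a fixed list, 18 reached 10 CPM on D14. Of these, 6 were 2-fold or more higher in CM-like cells, where 6.58% of all genes were, and 1 lower, where 4.42% were. The median log2 ratio was 0.50. On D21, 5 of 19 were higher, where 8.3% of all genes were, and 4 lower, where 9.24% were, with a median of -0.13. The higher genes included MYL9, the regulatory light chain of smooth muscle and non-muscle myosin, at 3773 CPM in CM-like and 399 CPM in stromal-like cells on D21, and TPM1, the muscle tropomyosin that sarcomeres also use, at 18153 and 2270.4 CPM. Lower in CM-like cells were the widely expressed relatives of 2 members, TAGLN2 at 8.85 and 112 CPM and CNN3 at 67.1 and 278 CPM. The 2 tested members of the list of striated leiomodins and kinases, LMOD2 and MYLK3, were both higher in CM-like cells on D21. None of the 5 skeletal muscle regulators such as MYOD1 and MYOG reached 10 CPM in these groups, also on D8, where ACTA1 was highest. Of 10 mural markers, 6 reached 10 CPM on D21, with 1 higher in CM-like cells (MYOCD) and 4 lower, beside the same 8.3% and 9.24% of all genes. Stromal-like cells there had 566 CPM of RGS5, 224 CPM of ITGA8 and 155 CPM of PDGFRB, but 0.179 CPM of HIGD1B.

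Within the CM-like cells the members divided by how they followed the CM markers. On D8, from the lowest to the highest of the 4 sets by CM marker share, ACTC1 was at 32.8, 108, 375 and 2165 CPM. ACTA2 was at 90.5, 264, 513 and 1338 CPM and ACTA1 at 19.8, 50.9, 288 and 828 CPM. TAGLN was at 219 CPM in the lowest and 605 CPM in the highest set, while CALD1 was at 280 and 236 CPM. All 3 main actins of D8 were thus highest in the cells with most CM marker RNA. On D14 ACTC1 was at 1760 CPM in the lowest and 11483 CPM in the highest set and ACTA1 at 10.0 and 329 CPM, but ACTA2 was at 957 CPM in the third set and 873 CPM in the highest. On D21 ACTC1 was at 8834 and 17230 CPM in the lowest and highest sets and ACTA2 at 1224, 1211, 1192 and 1103 CPM from the lowest to the highest set, so ACTA2 was lowest in the cells with most CM marker RNA. ACTB was at 1117 CPM in the lowest and 243 CPM in the highest set of D21.

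**Figure D4:**
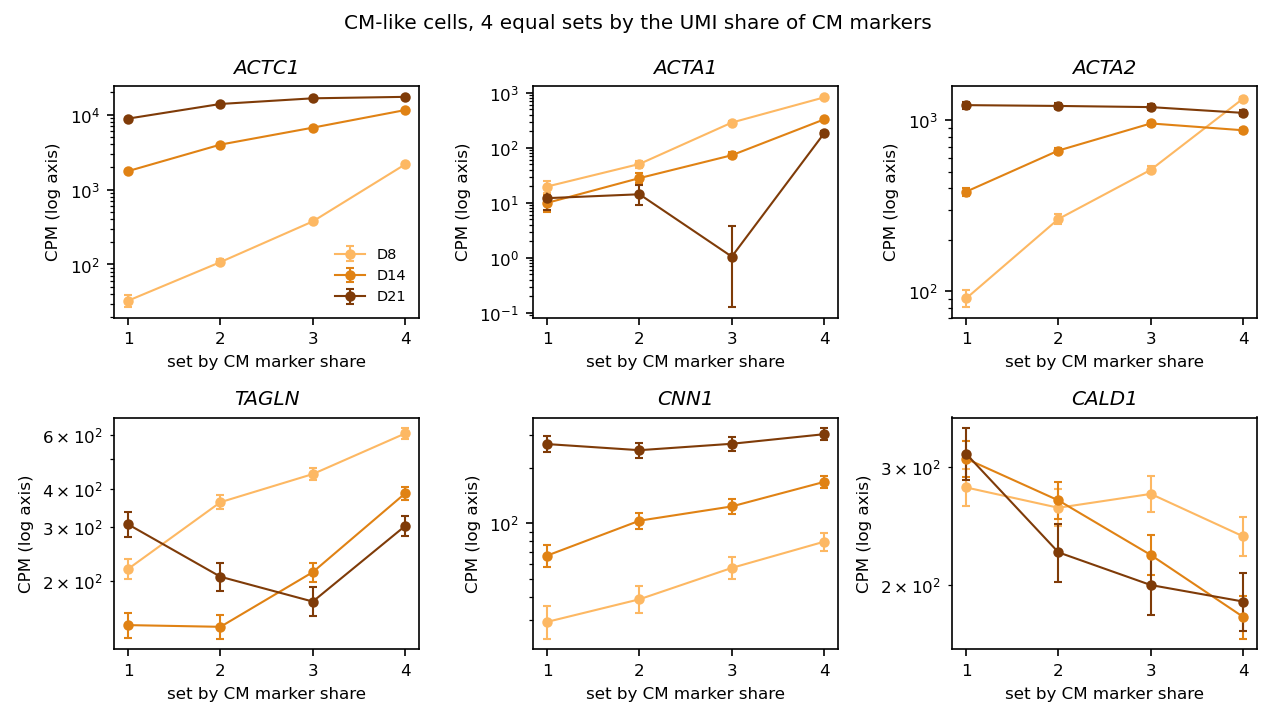
CPM (log axis) of ACTC1, ACTA1, ACTA2, TAGLN, CNN1 and CALD1 in 4 equal sets of the CM-like cells of each day, ranked from low (1) to high (4) by the share of UMIs in 10 CM markers. Bars are exact Poisson intervals. On D8 ACTC1, ACTA2 and ACTA1 all climb from set to set, for ACTC1 from 32.8 to 2165 CPM, while CALD1 stays between 236 and 280 CPM.

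Within the stromal-like cells of D21, ranked in the same way by 10 stromal markers, ACTA2 was at 461, 735, 935 and 1105 CPM from the lowest to the highest set. TAGLN was at 168 and 397 CPM in the lowest and highest sets, CALD1 at 522 and 772 CPM and ACTG2 at 10.2 and 36.4 CPM, so these 4 genes were higher in the cells with most stromal marker RNA. Others did not follow: CNN1 was at 65.1, 45.3, 63.8 and 74.9 CPM and MYLK at 4.16, 21.4, 7.80 and 5.73 CPM over the sets. ACTC1 was at 614 and 521 CPM in the same sets.

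The stromal-like cells with ACTG2 UMIs were richer in several other smooth muscle genes. Of 823 cells on D21, 757 had no ACTG2 UMI, 31 had 1 and 35 had 2 or more. ACTA2 was at 658, 1111 and 3292 CPM in these cells and TAGLN at 209, 583 and 1438 CPM. CNN1 was at 53.8, 99.8 and 179 CPM. MYLK was at 6.11, 15.9 and 65.7 CPM, from 62, 7 and 40 UMIs, and 1 of the 823 cells held 23 of these. MYL9 was at 359, 435 and 1037 CPM and MYOCD at 6.11, 9.07 and 32.9 CPM. MYH11 was at 3.85, 31.8 and 21.4 CPM, from 39, 14 and 13 UMIs. Between the 35 and the 757 cells, 5 of the 8 other members that reached 10 CPM were 2-fold or more higher, ACTA2, TAGLN, CNN1, MYH11 and MYLK, where 0.936% of 8332 genes were, and none lower, where 0.432% were. These calls were not repeated without the top cell, and those of MYH11 and MYLK rest on few UMIs. Of the list of 20 further smooth muscle genes, 3 of 19 tested were higher, MYL9, SMTN and TPM2, and none lower, and KCNMB1 (11.5 against 17.7 CPM), PPP1R12B (14.8 against 14.9 CPM) and SYNPO2 (24.6 against 20.7 CPM) were within 2-fold. The 757 cells still held most of the ACTA2 RNA, 6670 of 9164 UMIs. The deepest group was also the one with most ACTG2, with medians of 12496, 13337 and 15780 UMIs, and its median doublet score was 0.0522 against 0.0362. TNNT2 was at 481, 442 and 475 CPM in these cells and ACTC1 at 583, 474 and 591 CPM. The part of depth or doublets in the differences was not tested. Of the mural markers, 1 of 6 tested was 2-fold or more higher in the 35 cells, MYOCD, and none lower. RGS5 was at 306 against 591 CPM, PDGFRB at 156 and 155 CPM and NOTCH3 at 41.1 (26.6 to 60.6) against 21.4 CPM (18.6 to 24.4). These 35 cells were picked by a readout and are a range, not a cell type.

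Across all 24 day-by-cluster groups of at least 20 cells, the members peaked in different places. ACTC1 was highest in cluster 4 of D21 at 14800 CPM, apart from all others beyond counting error. ACTA1 was highest in the CM-like cells of D8, whose interval overlapped that of 35 cycling cells of cluster 6 on D21 at 298 CPM. The same 35 cycling cells had the highest ACTA2 level, 1499 CPM (1402 to 1600), followed by cluster 4 of D21 at 1212 CPM. ACTG2 was highest in the stromal-like cells of D21, followed at 4.16 CPM by 135 other cycling cells of D21. CNN1 was highest in cluster 4 of D21 at 277 CPM, not apart from the cycling cells at 261 CPM. LMOD1 peaked in the same 2 groups, at 122 and 89.7 CPM with overlapping intervals. CALD1 was highest in 26 cells of cluster 8 on D14 at 962 CPM, then in stromal-like cells of D21. The highest MYH11 and MYLK levels, at most 6.69 and 33.5 CPM, did not differ beyond counting error from those next in order.

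The large unnamed cluster 1 of D14, 1041 cells with 2 stromal markers among its leading genes, had 88.8 CPM of ACTA2, 292 CPM of CALD1 and 32.0 CPM of TAGLN, below the stromal-like cells of that day. Cluster 12 of D14, 292 unnamed cells, had 68.3 CPM of ACTA2 and 626 CPM of CALD1. The unnamed cluster 5 of D8, 468 cells, had 203 CPM of ACTA2 and 402 CPM of TAGLN.

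Over the same 24 groups, whose libraries and depths they share, the genes with the pattern most like a member were named by the Pearson correlation of log2(CPM + 10) among 5597 genes, as a description. For ACTC1 these were MYL7 (r of 0.985), MYH6 (0.982) and SMPX (0.976), all of the CM sarcomere or its costamere. For CNN1 and LMOD1 the first was the same gene, NEXN, a filament-binding protein of heart muscle, with 0.959 and 0.974. ACTA2 came closest to NCAM1 (0.908), MSRB3 (0.904) and MAP1A (0.901), and CALD1 to IFIT3 (0.916). The closest to TAGLN were the epithelial keratins KRT18 (0.751) and KRT8 (0.744), and those of ACTA1 stopped at 0.748, for IMMP1L. ACTG2, MYH11 and MYLK were too low to be ranked.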

How the data were processed

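Single-cell RNA was captured with the Chromium Single Cell 3′ v2 kit from 1 library per day. The authors deposited a merged table of raw UMI counts (32738 genes, 17327 barcodes, not normalized), and the submitters' processing notes name Cell Ranger, Seurat 3.2.1 and hg19 without their roles. As in the study's methods, cells were kept where the gene number lay between 2000 and 7500 and mitochondrial UMIs made up less than 10% (8188 cells, 30898727 to 50247286 UMIs per library). Counts were log-normalized in Seurat 5.3.0 (R 4.3.3), and 1977 of 2000 variable genes, without the members and the contractile lists, gave 20 principal components and 18 clusters at a resolution of 0.8. A cluster was named where at least 3 markers of a fixed list led it, 2 more than any other list. Beside cluster 8, of which 1 marker gene is not reported here, cells in unnamed clusters numbered 1875. Scrublet, run in scanpy 1.11.5, called 0.0279% to 0.3597% of cells, too few to have worked, so doublets were kept.

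Raw counts were summed over the cells of each group and day. CPM carry exact Poisson intervals, ratios of counts exact conditional intervals and shares exact Clopper-Pearson intervals, all at 95%. A level of 0 UMIs allows up to 3 counts. Log2 ratios add 10 CPM to both levels, genes needed 10 CPM in either group, and a difference was called at 2-fold. With 1 library per day and cells that are not replicates, no test was run. All 10 members were named by role, and genes of like pattern needed 50 CPM in a group. The members and lists were chosen with earlier results of these data known. The scripts were tested on simulated data.

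Promoter letters were read from RefSeq tables of GRCh38.p14, and since hg19 is the only build the notes name, no other coordinates are given. In the last 400 bases of each member's longest coding transcript (GENCODE), 0 of 341 stretches of 60 bases were found in another gene, so near-identical actins were told apart there. ACTA2, MYH11, MYLK and TAGLN share exon bases with a gene on the opposite strand that is also in the count table, and whether strand was used in counting is not given in the sources used here. Alternatives covered the limits on cells, the clustering, the scaling, background subtraction and doublet scores. The D8 comparison with cluster 8, D21 CM-like cells without cluster 17, all other cells as the comparison and members without their top cell were added after seeing the data.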

Additional observations from a re-analysis of the deposited data

Results flagged for a closer look

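CALD1 went in opposite directions in the 2 groups between D14 and D21, with a log2 ratio of -0.08 in CM-like cells and 0.20 in stromal-like cells. Both are small, they ranged from -0.37 to 0.58 and from -0.0075 to 0.62 over the other settings, so neither direction held in all of them, and the difference between the groups was not tested. The limits on cells left out 1030 barcodes of D14, whose summed UMIs were 11.9% mitochondrial. They held 3 of the members at 10 CPM or more at over 2-fold the level of the kept cells (10 CPM added to both). ACTC1 was at 5186 CPM in them against 2164 CPM in kept cells, ACTA1 at 146 against 58.1 CPM, and MYLK at 33.4 against 10.0 CPM. Under 10 CPM, MYH11 was at 4.47 CPM (2.77 to 6.83) against 0.816 CPM. TNNT2 was at 2404 against 964 CPM and COL1A1 at 146 against 299.7 CPM in the same barcodes. On D21, 7203 barcodes were left out and 1946 kept. ACTC1 was at 8225 CPM in the left-out barcodes against 4267 CPM in kept cells, and every member was within 2-fold with 10 CPM added to both. Under 10 CPM, ACTG2 was at 1.29 CPM (0.948 to 1.72) in the left-out barcodes against 9.32 CPM in kept cells. TNNT2 was at 5802 against 2659 CPM and COL1A1 at 147 against 698 CPM there, so much TNNT2 RNA of D21 lay outside the kept cells.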

How the results depend on the processing

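The 33 log2 ratios of 2-fold or more were recomputed under the other settings. Those between groups or successive days gave 321 values, of which 318 had the same sign and 299 were still 2-fold or more. The 321 include values of D8 against cluster 8, a comparison that was also added after seeing the data. Of 134 other values added after seeing the data, among them all those of D21 against D8, 131 had the same sign and 116 were 2-fold or more. MYLK in CM-like against stromal-like cells of D21 turned to -0.59 and -0.035 with mitochondrial limits of 5% and 20% and to -0.11 with the highest 10% by marker share. In CM-like cells of D21 against D8, ACTA2 turned to -0.28 with the 20% limit and -0.30 with the highest 10%, where MYLK was at -0.12. The members higher there numbered 2 with limits of 5% and 20% and with the highest 10%, and 3 at resolutions of 0.4 and 1.2 and with all variable genes kept, and 2 were lower in each of these settings. The number of members higher in CM-like than in stromal-like cells on D21 was 3 with the 5% limit. The number lower on D14 was 0 at a resolution of 0.4 and 0 against all other kept cells, where CALD1 was at -0.89 and -0.75. On D8, 1 member was lower than in cluster 8 after subtracting the endoderm or epithelial level. In CM-like cells of D14 against D8, 2 members were lower, ACTA1 and TAGLN, with limits of 5% and 20%, at a resolution of 0.4, with 3000 variable genes and with all variable genes kept. For D21 against D14, 1 member was higher with limits of 5% and 20% and 0 at a resolution of 1.2 and with the highest 10%. In that comparison 2 were lower with limits of 5% and 20%, and 1 was lower with the limit of 1000 genes, a resolution of 1.2, the highest 10%, and without the top cell. Stromal-like cells had 5 members higher on D21 than on D14 at a resolution of 0.4. The ACTC1 share of muscle actin in CM-like cells of D21 was 90.3%, 94.1%, 91.7% and 92.4% with limits of 5% and 20%, a resolution of 0.4 and the highest 10%. The same share on D8 was 46.2% and 45.9% with those limits, 45.3% and 45.4% at resolutions of 0.4 and 1.2, 45.3% with all variable genes kept and 49.9% with the highest 10%. The ACTA2 share in stromal-like cells of D21 was 56.6% with more than 1000 genes and 65.8% with the highest 10%. CM-like cells of D8 numbered between 426 and 977 over the clusterings, against 929. The cause of these shifts was not tested. No stromal-like cluster was found on D14 with the 5% limit, and no counterpart of cluster 8 on D8 with limits of 5% and 20%, at a resolution of 0.4 or with all variable genes kept, so these alternatives gave no value there. No paired analysis was possible because each day had 1 library.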

Other observations

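In 204 cells of D8 with ectoderm markers such as SOX2 and SFRP2, ACTA1 was the most abundant muscle actin, at 109 CPM beside 78.3 CPM of ACTC1 and 47.6 CPM of ACTA2, so that it made up 45.9% of their muscle actin UMIs against 19.5% in the CM-like cells of that day. In 78 cells of the same cluster on D14 ACTA1 had 5 UMIs, 1.01% of the muscle actin UMIs. In endothelial-like cells CALD1 was the most abundant member on D8 and D14, at 449 and 438 CPM, and ACTC1 on D21, at 831 CPM. The endothelial share of ACTA2 among muscle actin UMIs was 76.6% (exact binomial interval 64.3% to 86.2%) on D8, from 49 of 64 UMIs, 32.1% on D14 and 14.5% on D21. ACTC1 in these cells was at 13.1, 171 and 831 CPM, beside 21.5, 81.0 and 551 CPM of TNNT2.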
